A study of Mus musculus with 10 samples.

Results

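The acute response to glucagon was measured in primary mouse hepatocytes that carried a control hairpin, and its members are the 4 control-hairpin libraries of a series of 10. In 2 libraries (glucagon A and glucagon B) the cells had received 100 nM glucagon for 90 minutes, and in the other 2 (PBS A and PBS B) phosphate-buffered saline for the same time. The hepatocytes came from male C57BL6/J mice aged 10 weeks, per the labels. Before treatment every culture, PBS cultures included, had been transduced for 72 hours with an adenovirus at 2 to 4 plaque-forming units per cell. The control virus delivered a non-specific short hairpin RNA (shNS), so that the cells of both treatments carry the virus. Each library pooled RNA of 3 dishes. The other 6 libraries carried hairpins against WDR5 or KAT2B (3 each), and were used for the spread between libraries and for a comparison at the end.

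Glucagon is the fasting hormone that acts on the liver through a receptor coupled to adenylyl cyclase. Cyclic AMP (cAMP) activates protein kinase A, which phosphorylates the transcription factor CREB and, by inhibiting salt-inducible kinases, lets the CRTC coactivators enter the nucleus. In hepatocytes this programme is known for turning on the genes of glucose production, together with amino acid uptake and breakdown that feed it.

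Values are log2 intensities of Affymetrix arrays, and every difference is a glucagon library minus the PBS library of the same letter, A with A and B with B. The median deposited intensity lay between 282.1 and 290 in the 4 libraries. Of the hepatocyte transcripts 2 stood at the top of the scale. The transferrin gene Trf was at 13.99 and 13.98 under glucagon and 13.99 and 13.93 under PBS. The albumin gene Alb was at 13.75 and 13.83 under glucagon and 13.65 and 13.84 under PBS. Apoa1 was lower (10.10 and 11.20 under glucagon), with Ttr, Hnf4a, Apob and Ahsg between. Some markers of other cells reached the Apoa1 level under glucagon, such as Cd68 of Kupffer cells (10.48 and 11.11) and Krt19 of cholangiocytes (11.01 and 11.07). Others, such as the leukocyte marker Ptprc (7.06 and 7.61), did not. Of the same 2 cell types, Clec4f of Kupffer cells (7.19 and 7.53) and Krt7 of cholangiocytes (7.72 and 7.34) were also lower. The 2 hairpin targets of the other arms were level here, with Kat2b between 9.40 and 9.42 and Wdr5 between 9.99 and 10.06. Summed intensity of 21 Kupffer cell and leukocyte markers was 9064 and 15039 under glucagon (A and B) and 9237 and 13700 under PBS. That sum was higher in the B libraries than in the A libraries under either treatment, and the part of these cells in the results was not tested. In bulk RNA, fewer cells of a type and less RNA per cell cannot be told apart.

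Of 11481 genes tested, glucagon changed 223 (1.94%), 142 upward (1.24%) and 81 downward (0.706%). Calls needed an adjusted p below 0.05 and the same direction in A and in B (limma, with Benjamini-Hochberg adjustment over all genes tested). The condition on direction removed 0 genes, and the median difference of all genes tested was -0.005. In 204 of the 223 no glucagon library overlapped a PBS library, which was true of 15.1% of all genes tested. The called genes were moderate in size for the most part, with a median of 0.60 for those higher and -0.50 for those lower. A difference of at least 1 in both letters was reached upward by 30 genes (0.261%) and downward by 6 (0.0523%), all of them called.

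The counts rest on the pairing by letter and on every library. Without a term for the letter, limma called 22 genes higher and 0 lower (250 genes at an unadjusted p below 0.05). These 22 were Nr4a1, Nr4a2, Nr4a3, Tat, Egln3, Rasgef1b, Rgs2, Sik1, Slc7a2, Ppargc1a, Efna1, Id3, Nefl, Slc25a25, Cep85l, Pde4b, Nfil3, Gde1, Hilpda, Usp2, Got1 and Prrg4, so that any other call below depends on that term. Without any 1 of the 4 libraries the calls were 93 higher and 34 lower (PBS A left out), 74 and 31 (PBS B), 67 and 25 (glucagon A) and 59 and 33 (glucagon B). Called throughout were 74 genes, 52 higher and 22 lower. The labels do not say that A and B are separate animals, so the p-values reflect only the spread seen among these few pooled libraries.

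**Figure D1:**
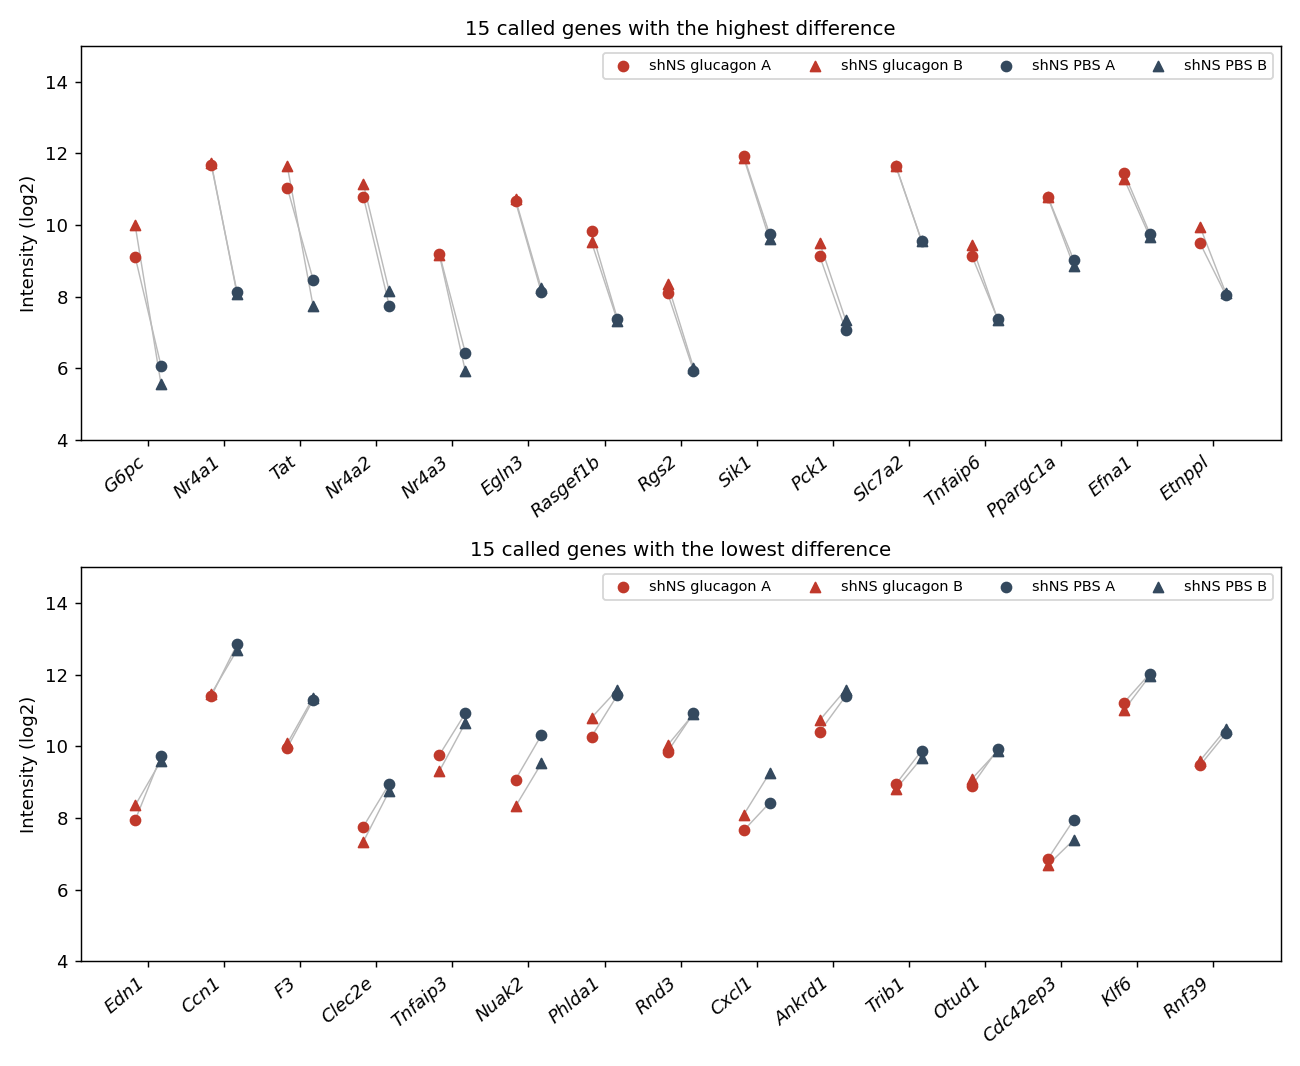
Log2 intensity of the 15 called genes with the highest (upper panel) and the 15 with the lowest (lower panel) mean difference, with 1 point for each library (red, shNS glucagon; dark blue, shNS PBS; circles, A; triangles, B) and a line joining the libraries of 1 letter. For each of the 30 genes both glucagon points lie on the same side of both PBS points; G6pc has its PBS points at 6.07 and 5.56, the lowest pair in either panel.

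The NR4A orphan nuclear receptors, immediate cAMP targets that bind DNA without a known physiological ligand, rose in all of their 3 members. Nr4a1 stood at 11.69 and 11.73 under glucagon, against 8.12 and 8.07 under PBS. The 2 libraries of each treatment lay within 0.1 of each other, and the difference was 3.62 ± 0.07 (SE, 2 against 2 libraries, limma adjusted p = 1.97e-10), or 12.3-fold. Nr4a2 stood at 10.79 and 11.15 under glucagon, against 7.75 and 8.15 under PBS. Its B libraries were the higher ones under either treatment, so that the A and B differences, 3.04 and 3.0, were closer than the levels (mean 3.02 ± 0.08, adjusted p = 9.15e-10). Nr4a3 stood at 9.19 and 9.16 under glucagon, against 6.44 and 5.93 under PBS (2.99 ± 0.12, adjusted p = 5.97e-08). Its 2 glucagon values were nearly equal, and its PBS values lay below the lowest mean level that passed the filter on dim genes (7.12).

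Few transcripts of the proteins that carry the signal from the receptor to CREB changed. Of 19 tested genes of that route 1 was higher (5.26%, against 1.24% of all genes) and 0 lower, with a median difference of -0.01. The receptor Gcgr stood at 7.79 and 8.55 under glucagon, against 7.91 and 8.35 under PBS, so the groups overlapped (0.04, 95% interval -0.20 to 0.28). Creb1 (-0.015, interval -0.21 to 0.18) and the coactivator Crtc2 (-0.09, interval -0.25 to 0.07) did not pass either. The gene that passed was Adcy9, an adenylyl cyclase, at 8.42 and 8.22 under glucagon, against 7.99 and 7.70 under PBS (0.48 ± 0.09, adjusted p = 0.0115). Its call was lost without any 1 of the 4 libraries, up to an adjusted p of 0.263.

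Feedback on the cAMP signal was a further group with large increases, 5 of 24 tested genes higher and 0 lower, against 1.24% of all genes. Rgs2, which speeds up GTP hydrolysis by heterotrimeric G proteins, stood at 8.10 and 8.36 under glucagon, against 5.94 and 6.02 under PBS (2.25 ± 0.14, adjusted p = 2.27e-06). Sik1, a salt-inducible kinase that keeps CRTC coactivators out of the nucleus, stood at 11.92 and 11.88 under glucagon, against 9.75 and 9.60 under PBS (2.23 ± 0.07, adjusted p = 3.56e-09). Both were separated by more than 2 log2 units in A and in B.
The phosphodiesterases that degrade cAMP followed with smaller differences. Pde4b stood at 8.98 and 9.18 under glucagon, against 7.65 and 7.82 under PBS (1.35 ± 0.09, adjusted p = 4.81e-06). Pde4d stood at 9.97 and 9.78 under glucagon, against 9.04 and 8.73 under PBS (0.99 ± 0.08, adjusted p = 3.65e-05), and a second array feature of Pde4d gave 1.59. These are the 2 members of the PDE4 family that were tested, and both rose. The last of the 5 was Crem, whose products include cAMP-inducible repressors, at 8.29 and 8.50 under glucagon and 7.76 and 7.86 under PBS (0.59 ± 0.09, adjusted p = 0.00481). Its call was lost without PBS B, glucagon A or glucagon B (adjusted p up to 0.159). The other 19, among them Sik2 (0.03), Sik3 (0.04) and Pde3b (0.21), did not pass.

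Over a list of 31 known CREB and cAMP targets, 18 rose (58.1%, against 1.24% of all genes) and 3 fell (9.68%, against 0.706%). The median difference was 0.59. Like the other lists, it was chosen with earlier results of these data known, so the share is a description. Besides those above, Rasgef1b, an exchange factor for small GTPases, stood at 9.83 and 9.52 under glucagon, against 7.38 and 7.33 under PBS (2.32 ± 0.09, adjusted p = 3.59e-08). Id3, which blocks basic helix-loop-helix factors, stood at 10.53 and 10.47 under glucagon, against 8.93 and 8.96 under PBS (1.56 ± 0.09, adjusted p = 2.02e-06). In neither did the groups overlap, and both stayed called without any 1 of the 4 libraries. The 3 members that fell were Klf6 (-0.89), Egr1 (-0.76) and Ier2 (-0.45), which are also growth factor responsive immediate early genes. Without the term for the letter, 10 of the 18 were called and none of the 3.

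Promoter sequences are shown for genes that moved most and hold the core of the CRE, the site to which CREB binds. RefSeq start sites on GRCm38.p6 gave windows of 250 bases before to 50 after the start. At least 1 window was found for 118 of the 142 genes called higher, 60 of the 81 called lower and 9237 of the 11481 tested. Some genes had several windows, and a gene was counted once if any of its windows held a match. The core TGACG was searched on both strands and reads CGTCA when it lies on the other one. It was found for 49 of these 118 genes called higher (41.5%), 21 of the 60 called lower (35.0%) and 35.6% of all 9237. Among genes higher by at least 1 in both letters it was found for 15 of the 26 with a window (57.7%). No core was found for G6pc, Tat, Sik1 or Slc7a2, for want of a match or of a window. Rasgef1b held 1 core and is not shown. Each line below reads 5′ to 3′ along the gene, with positions counted from the start site and the core in capitals.
Nr4a1 (bases -81 to -24, chr15:101266765-101266822, plus strand): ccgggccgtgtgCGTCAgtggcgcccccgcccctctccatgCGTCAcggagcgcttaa
Nr4a2 (bases -156 to -95, chr2:57124098-57124159, minus strand): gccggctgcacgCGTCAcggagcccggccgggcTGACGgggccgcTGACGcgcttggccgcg
Nr4a3 (bases -217 to -131, chr4:48045088-48045174, plus strand): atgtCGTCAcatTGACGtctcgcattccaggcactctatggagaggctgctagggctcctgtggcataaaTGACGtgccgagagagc
Egln3 (bases -46 to -18, chr12:54203892-54203920, minus strand): ggggcgggaccaTGACGttggggtcaagg
Rgs2 (bases -79 to -51, chr1:144004200-144004228, minus strand): ttggggcgtggcTGACGcctccaggtccc
Pck1 (bases -102 to -74, chr2:173152971-173152999, plus strand): gcctgccccttaCGTCAgaggcgagcctc
Nr4a1, Nr4a2 and Nr4a3 hold 4 cores each in their whole windows, and the stretches shown hold 2 of those of Nr4a1 and 3 each of those of Nr4a2 and Nr4a3.

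The complete palindrome TGACGTCA, which contains the core on either strand, had another distribution. Counted by gene, it was found for 1 of the 118 called higher (0.847%, Slc25a25), 6 of the 60 called lower (10.0%) and 3.52% of all 9237. The 6 were Plk2, Cdkn2b, Wsb1, Irf2bpl, Dusp8 and Epha2, which were picked for the motif after their values were seen. Of these 4 are shown, with the palindrome in capitals: Plk2, a polo-like kinase, Cdkn2b, an inhibitor of cyclin-dependent kinases, Dusp8, a phosphatase of MAP kinases, and Epha2, a receptor for ephrins.
Plk2 (bases -74 to -43, chr13:110394970-110395001, plus strand): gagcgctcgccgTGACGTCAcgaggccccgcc
Cdkn2b (bases -58 to -27, chr4:89311059-89311090, minus strand): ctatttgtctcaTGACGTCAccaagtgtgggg
Dusp8 (bases -119 to -44, chr7:142095328-142095403, minus strand): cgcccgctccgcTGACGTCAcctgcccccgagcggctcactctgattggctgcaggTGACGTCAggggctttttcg
Epha2 (bases -45 to -14, chr4:141301176-141301207, plus strand): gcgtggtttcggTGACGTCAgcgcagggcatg
Plk2 stood at 11.84 and 11.69 under glucagon, against 12.44 and 12.29 under PBS (-0.60 ± 0.05, adjusted p = 4.25e-05). The other 3 fell by 0.57 (Cdkn2b), 0.34 (Dusp8) and 0.31 (Epha2), and the call of Dusp8 was lost without any 1 of the 4 libraries (adjusted p up to 0.493). The AP-1 site TGANTCA was found for 13.3% of genes called lower that had a window, 5.93% of those called higher and 6.2% of all. The NBRE AAAGGTCA, the site of NR4A monomers, was found for 1 gene of each called set (1.29% of all). The FOXO site GTAAACA was found for 3 genes of each (3.17% of all) and the C/EBP site TTGCGCAA for 0 of each (0.325% of all). A match describes the letters of a window and shows no binding.

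Genes of glucose production rose in 9 of 28 tested members (32.1%, against 1.24% of all genes) and fell in 0. G6pc, whose product releases free glucose in the last step of gluconeogenesis and glycogen breakdown, stood at 9.11 and 9.99 under glucagon, against 6.07 and 5.56 under PBS. The B difference, 4.43, was larger than the A difference, 3.04, because glucagon B was higher and PBS B lower (mean 3.74 ± 0.32, adjusted p = 3.81e-05). This was the largest mean difference of all genes tested, and its PBS level lay near the dim end of the array. Pck1, the cytosolic enzyme that makes phosphoenolpyruvate, stood at 9.13 and 9.5 under glucagon, against 7.07 and 7.35 under PBS (2.11 ± 0.23, adjusted p = 3.44e-04). Ppargc1a, the coactivator PGC-1alpha, stood at 10.78 and 10.77 under glucagon, against 9.02 and 8.85 under PBS (1.84 ± 0.07, adjusted p = 4.68e-08). A second array feature of Ppargc1a gave 1.84 as well.
Slc25a25, which exchanges ATP-Mg and phosphate across the inner mitochondrial membrane, stood at 9.80 and 9.85 under glucagon, against 8.39 and 8.41 under PBS (1.43 ± 0.09, adjusted p = 2.28e-06). Ppp1r3g, a subunit that brings protein phosphatase 1 to glycogen, was higher by 1.16 ± 0.15 (adjusted p = 0.00107). The other 4 were Fbp1, a gluconeogenic phosphatase (0.67), Lpin1 (0.46), Cebpb (0.45) and Hnf4a (0.34). These 4 were not called without any 1 of the 4 libraries, which left 5 of 28 each time. Without the term for the letter Ppargc1a and Slc25a25 were the 2 called, and G6pc and Pck1 were not.
Several enzymes of the same route did not pass, with Pcx (0.05), Slc37a4 (0.09), Pck2 (-0.10) and the glycogen phosphorylase Pygl (0.02) near 0. Another phosphatase 1 subunit, Ppp1r3c, was too dim over all libraries to be tested, at 7.72 and 7.42 under glucagon, against 5.76 and 6.07 under PBS. It was 1 of 3 genes below the filter with a difference of at least 1 in both letters, beside Hcar2, a receptor for ketone bodies (7.52 and 7.21 under glucagon, against 5.87 and 6.03 under PBS), and Klb, the FGF21 coreceptor (7.71 and 7.39 under glucagon, against 6.34 and 6.32 under PBS).

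Amino acid breakdown was led by Tat, the tyrosine aminotransferase and a classical hormone-induced liver gene. Tat stood at 11.04 and 11.64 under glucagon, against 8.47 and 7.73 under PBS. As with G6pc, the B difference (3.91) exceeded the A difference (2.57), and the mean was 3.24 ± 0.24 (adjusted p = 1.26e-05), or 9.45-fold. Of 27 tested enzymes and carriers of amino acid breakdown and ureagenesis, 6 rose (22.2%, against 1.24% of all genes) and 0 fell. Got1, the cytosolic aspartate aminotransferase, stood at 12.79 and 12.83 under glucagon, against 11.93 and 12.17 under PBS (0.76 ± 0.06, adjusted p = 3.81e-05). Cps1, the entry enzyme of the urea cycle, stood at 7.63 and 8.26 under glucagon, against 7.29 and 7.50 under PBS (0.55 ± 0.12, adjusted p = 0.0325). Slc25a15, the mitochondrial ornithine carrier, was higher by 0.55, and Aldh4a1 (0.41) and Cbs (0.39) completed the 6. Without any 1 of the 4 libraries Tat and Got1 alone of the 6 were called.

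Of 25 tested amino acid transporters 3 rose (12%, against 1.24% of all genes) and 0 fell, with a median difference of 0. Slc7a2, a carrier of arginine, lysine and ornithine, stood at 11.64 and 11.66 under glucagon, against 9.55 and 9.55 under PBS. The spread within either treatment was at most 0.02, and the difference was 2.10 ± 0.06 (adjusted p = 2.98e-09), or 4.29-fold. Its relative Slc7a1 stood at -0.11 and did not pass. Slc16a10, which carries aromatic amino acids, stood at 9.52 and 9.85 under glucagon, against 8.32 and 8.53 under PBS (1.26 ± 0.08, adjusted p = 2.47e-06). Slc38a4, a carrier of small neutral amino acids that is abundant in liver, was higher by 0.33 ± 0.05 (adjusted p = 0.00197). In none of the 3 did the groups overlap. The call of Slc38a4 was lost without PBS A, glucagon A or glucagon B (adjusted p up to 0.066), and Slc7a2 alone was called without the term for the letter.

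Egln3 stood apart from its own list. It encodes a prolyl hydroxylase that marks hypoxia-inducible factors for degradation, and stood at 10.66 and 10.72 under glucagon, against 8.12 and 8.23 under PBS (2.52 ± 0.10, adjusted p = 3.79e-08). That is 5.72-fold, with A and B differences of 2.54 and 2.49. Egln3 was the sole call (5%, against 1.24% of all genes higher) among 20 tested prolyl hydroxylase and hypoxia genes, whose median was 0.04. The list does not hold Hilpda, hypoxia-inducible by its full name, which was also called higher (1.04). Egln1 (0.06), Egln2 (0.06), Hif1a (0.02), Vegfa (0.19) and Slc2a1 (0.08) did not pass.

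Among the 15 genes with the highest differences 3 lay in none of the lists. Tnfaip6, a secreted hyaluronan-binding protein, stood at 9.14 and 9.43 under glucagon, against 7.38 and 7.36 under PBS (1.92 ± 0.14, adjusted p = 8.04e-06). Efna1, a membrane-anchored ephrin ligand, stood at 11.46 and 11.29 under glucagon, against 9.76 and 9.67 under PBS (1.66 ± 0.07, adjusted p = 9.74e-08). Etnppl, which breaks down phosphoethanolamine, stood at 9.49 and 9.95 under glucagon, against 8.04 and 8.09 under PBS (1.66 ± 0.14, adjusted p = 3.24e-05). All 15 remained called without any 1 of the 10 libraries.

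Insulin signalling genes showed 1 large increase. Irs2, the docking protein of the insulin receptor in liver, stood at 9.99 and 9.92 under glucagon, against 8.84 and 8.27 under PBS (1.4 ± 0.11, adjusted p = 1.75e-05). Irs1 had a difference of 0.57 with an adjusted p of 0.0552 and was not called, though it was called without glucagon A. Of the 28 tested members of a list of insulin signalling and FOXO targets, 1 rose (3.57%, against 1.24% of all genes) and 4 fell (14.3%, against 0.706%). Those that fell were Trib1 (-0.91), a pseudokinase that directs proteins to degradation, Gadd45b (-0.71), Gadd45a (-0.52) and Cited2 (-0.43). The FOXO target Igfbp1 stood at 10.57 and 11.04 under glucagon, against 10.23 and 10.70 under PBS. Its difference was 0.34 in either letter, the groups overlapped, and it did not pass (adjusted p = 0.0668). That outcome was the same in 8 of the 10 fits that leave out 1 library. Without any 1 of the 4 libraries between 1 and 3 of the 4 lower calls were left, Trib1 in each case.

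Immediate early transcription factors moved in opposite directions. Of 29 tested, 6 rose (20.7%, against 1.24% of all genes) and 8 fell (27.6%, against 0.706%), with a median of -0.11. Nfil3, a basic leucine zipper repressor, stood at 10.71 and 10.87 under glucagon, against 9.78 and 9.60 under PBS (1.1 ± 0.08, adjusted p = 1.65e-05). Klf4, a zinc finger factor, was higher by 1.01 ± 0.12 (adjusted p = 6.06e-04), and Fosb, Fosl2, Atf3 and Cebpb by 0.83, 0.76, 0.70 and 0.45. Klf6, a relative of Klf4, stood at 11.22 and 11.01 under glucagon, against 12.03 and 11.97 under PBS (-0.89 ± 0.07, adjusted p = 2.92e-05). Within this list family members therefore lay on opposite sides: Klf4 rose while Klf5 (-0.60) and Klf6 fell, and Fosb and Fosl2 rose while Fosl1 (-0.53) fell.
Fos itself stood at 7.27 and 7.52 under glucagon, against 6.96 and 7.13 under PBS, a difference of 0.35 that did not pass (adjusted p = 0.200). Myc and Egr1 both fell by 0.76. Myc stood at 11.31 and 11.30 under glucagon, against 12.13 and 12.0 under PBS, and Egr1 at 8.31 and 8.45 under glucagon, against 9.14 and 9.14 under PBS. The remaining lower calls were Ier5, Ier2 and Zfp36l1. Without any 1 of the 4 libraries the lower calls in this list numbered 3 to 5, with Klf6, Myc and Egr1 in each case, and 0 without the term for the letter.

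Of the 15 genes with the largest decreases 5 are known targets of YAP, TEAD or SRF, transcriptional regulators that respond to cell shape and actin. Of 34 tested members of a list of such targets 10 fell (29.4%) and 0 rose, against 0.706% of all genes lower. Edn1, the vasoconstrictor peptide endothelin-1, stood at 7.94 and 8.35 under glucagon, against 9.72 and 9.60 under PBS (-1.52 ± 0.15, adjusted p = 1.37e-04), or 2.86-fold lower. The A difference (-1.78) was larger than the B difference (-1.25), chiefly through the lower glucagon A value. Ccn1, a matricellular protein, stood at 11.40 and 11.46 under glucagon, against 12.85 and 12.69 under PBS (-1.34 ± 0.12, adjusted p = 5.78e-05). F3, tissue factor, stood at 9.96 and 10.08 under glucagon, against 11.30 and 11.36 under PBS (-1.31 ± 0.15, adjusted p = 3.69e-04). Each of these 3 had both glucagon values more than 1 below both PBS values.
Nuak2, a kinase related to AMPK, stood at 9.07 and 8.32 under glucagon, against 10.31 and 9.52 under PBS. Levels differed between letters by over 0.7, while the differences were -1.24 and -1.20 (mean -1.22 ± 0.08, adjusted p = 6.99e-06). The remaining 6 were Ankrd1 (-0.92), Amotl2 (-0.84), Ccn2 (-0.78), Egr1 (-0.76), Fhl2 (-0.56) and Ajuba (-0.37). Cytoskeletal members of the list stayed near 0, with Acta2 at 0.04, Actb at 0.01, Tagln at -0.05 and Vcl at -0.03. Without any 1 of the 4 libraries 8 or 9 of the 10 were called, and without the term for the letter 0.

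Of the 15 genes with the largest decreases 6 were in none of the lists. Clec2e, a C-type lectin, stood at 7.76 and 7.34 under glucagon, against 8.95 and 8.75 under PBS (-1.30 ± 0.10, adjusted p = 1.87e-05). Tnfaip3, the NF-kB inhibitor A20, which is on the list of inflammatory genes, stood at 9.76 and 9.31 under glucagon, against 10.92 and 10.65 under PBS (-1.25 ± 0.15, adjusted p = 6.35e-04). In both genes all glucagon values lay below all PBS values. Rnd3 and Phlda1, a pleckstrin homology protein, fell by 0.97 each, Otud1, a deubiquitinase, by 0.90, and Cdc42ep3, an effector of CDC42, and Rnf39, a RING finger protein, by 0.90 and 0.89. All 7 genes stayed called without any 1 of the 4 libraries, except that Cdc42ep3 was too dim to be tested without PBS A.

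Inflammatory genes gave calls in both directions. Of 29 tested acute phase and NF-kB genes 2 rose (6.9%, against 1.24% of all genes) and 3 fell (10.3%, against 0.706%). The median was 0.04. Socs3, which inhibits cytokine receptor signalling, stood at 8.57 and 9.09 under glucagon, against 7.95 and 7.77 under PBS (0.97 ± 0.14, adjusted p = 0.00254). Its differences were 0.62 in A and 1.32 in B, the call was lost without glucagon B (adjusted p = 0.0992), and a second, dimmer feature of Socs3 gave 0.03. Nfkbiz, an NF-kB cofactor, rose by 0.62. The chemokines Ccl2 (-0.80, adjusted p = 0.00192) and Cxcl1 (-0.97, adjusted p = 0.0207) fell. Ccl2 stood at 12.04 and 11.70 under glucagon, against 12.77 and 12.57 under PBS, and Cxcl1 at 7.65 and 8.09 under glucagon, against 8.42 and 9.25 under PBS. Cxcl1 was not called without PBS B, glucagon A or glucagon B (adjusted p up to 0.419), and Ccl2 was not called without glucagon A (0.0728). The acute phase genes Saa1 (-0.10), Saa2 (0.05), Hp (0.03) and Crp (0.10) did not pass.

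**Figure D2:**
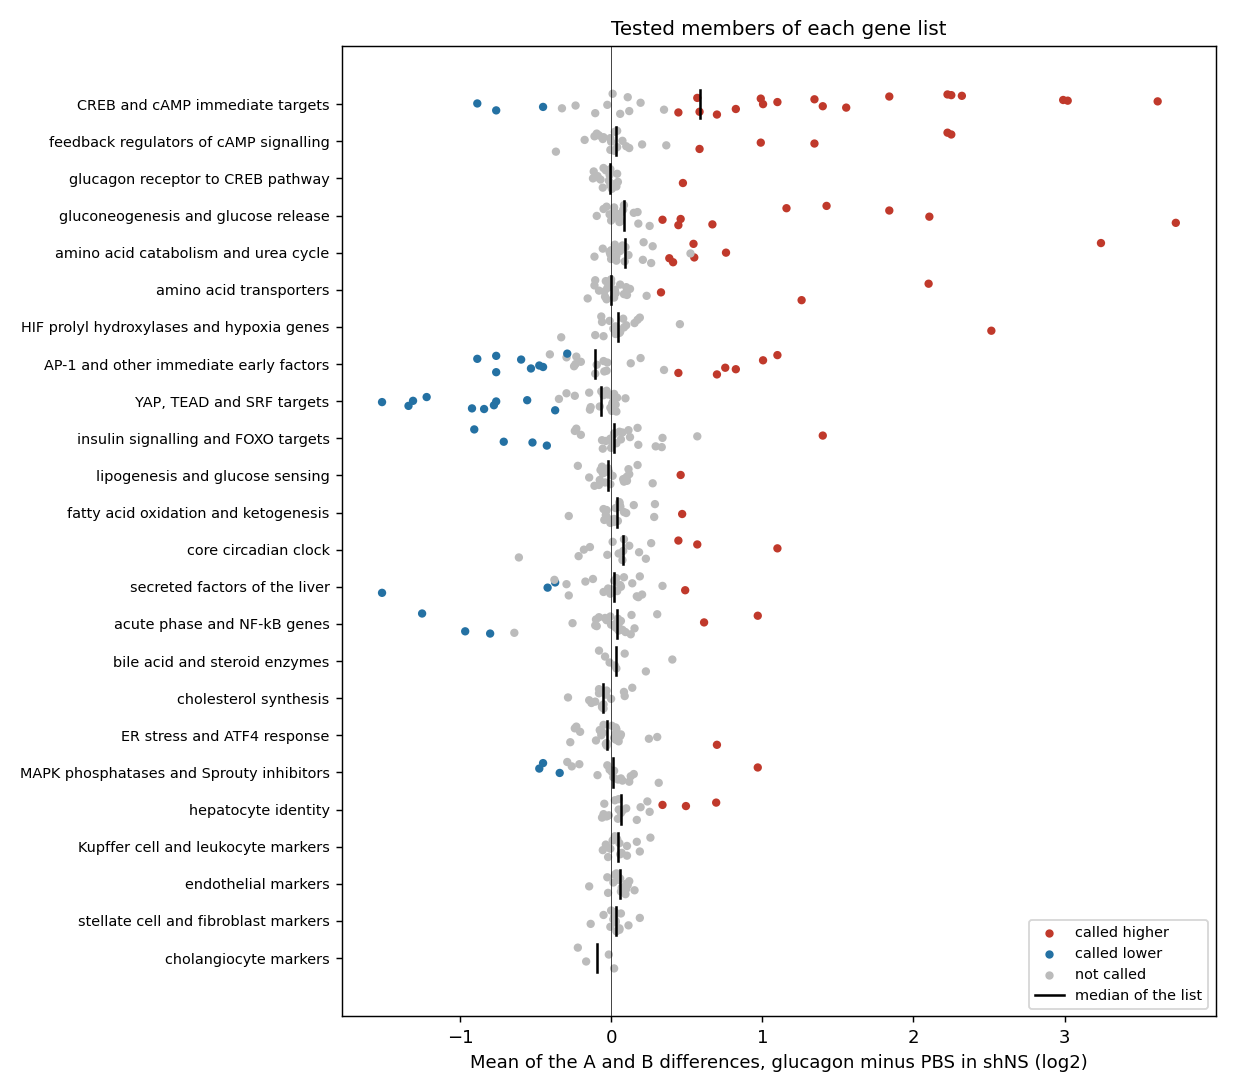
Mean of the A and B differences (log2, glucagon minus PBS) for every tested member of 24 gene lists, with 1 point for each gene (red, called higher; blue, called lower; grey, not called) and a black bar at the list's median. The CREB and cAMP targets have 18 red and 3 blue points and a median of 0.59, and the YAP, TEAD and SRF targets have 10 blue points and no red one.

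Other groups are given beside 1.24% of all genes higher and 0.706% lower. In the core circadian clock 3 of 17 rose (17.6%), Nfil3, Per1 and Rora (0.45). Per1 stood at 8.91 and 8.68 under glucagon, against 8.43 and 8.02 under PBS (0.57 ± 0.10, adjusted p = 0.00751). Of the 3 clock genes Nfil3 alone was called without every library in turn. Per1 was lost without PBS B, glucagon A or glucagon B (highest adjusted p 0.221). Of 25 secreted factors 1 rose (4%) and 3 fell (12%). Fst, an activin antagonist, rose (0.49), and Edn1, Hbegf (-0.42) and Inhba, an activin subunit (-0.37), fell. Of the 3 that fell Edn1 alone was called without any 1 of the 4 libraries, and Fst was called in 1 of these 4 fits. Among 20 MAP kinase phosphatases, Sprouty and SOCS inhibitors 1 rose (5%) and 3 fell (15%). Socs3 rose, and Socs2 (-0.48), Spry1 (-0.45) and Dusp8 (-0.34) fell. Between 0 and 2 of these 3 were called without any 1 of the 4 libraries, Dusp8 in none of these fits and Spry1 in 1. Atf3 was the only call among 25 ER stress and ATF4 genes, and it stood at 11.10 and 10.51 under glucagon and 10.57 and 9.64 under PBS, so that its groups overlapped. The call of Atf3 was lost without glucagon B.
Few genes of lipid metabolism changed. Of 26 lipogenic genes 1 rose (3.85%), Lpin1, a phosphatidate phosphatase (0.46). Of 22 genes of fatty acid oxidation and ketogenesis 1 rose (4.55%). It was Cpt1a, which admits long-chain fatty acids to mitochondria (0.47 ± 0.08, adjusted p = 0.00538). The call of Cpt1a was lost without PBS B, glucagon A or glucagon B. Of 16 cholesterol synthesis genes limma called 0 (1 at an unadjusted p below 0.05), the largest difference being Msmo1 at -0.29 (adjusted p = 0.0529). Of 8 tested bile acid and steroid genes it also called 0 (2 unadjusted), the largest being Fgfr4 at 0.41 (adjusted p = 0.0668). For Msmo1 and Fgfr4 the outcome was the same in 8 of the 10 fits that leave out 1 library.

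Hepatocyte identity factors rose slightly in 3 of 19 tested members (15.8%, against 1.24% of all genes). Onecut1 stood at 9.34 and 9.10 under glucagon, against 8.63 and 8.42 under PBS (0.70 ± 0.13, adjusted p = 0.0133), Foxa3 was higher by 0.50, and Hnf4a, which stood at 12.05 and 12.02 under glucagon, against 11.73 and 11.66 under PBS, by 0.34. None of the 3 was called without any 1 of the 4 libraries. Marker lists of other liver cells held 0 limma calls among 16 Kupffer cell and leukocyte genes (2 at an unadjusted p below 0.05) and 0, with 0 unadjusted, among 17 endothelial, 15 stellate cell and fibroblast and 4 cholangiocyte genes. Their medians were 0.05, 0.06, 0.03 and -0.09. The members of largest size were Tyrobp (0.26), Emcn (0.16), Postn (0.19) and Sox9 (-0.22), and none passed (adjusted p of 0.651, 1.0, 0.934 and 0.759). Summed stellate cell and fibroblast intensity was 30382 and 26718 under glucagon and 30802 and 25916 under PBS, and summed endothelial intensity 5695 and 7776 under glucagon and 5728 and 7032 under PBS.

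The response could be followed gene by gene in A and in B, which share no library. Across the 11481 genes the A and B differences correlated with r = 0.645, given as a description because genes are not independent and each pair of libraries shares its letter. Of the 142 genes called higher, 91 had the larger difference in B and 49 in A, and of the 81 called lower, 29 had the larger decrease in B and 48 in A. The median of the genes called higher was 0.58 in A and 0.66 in B, and that of the genes called lower -0.52 in A and -0.50 in B. Among called genes the ratio of the A to the B difference was highest for Arrdc3 (0.64 in A and 0.25 in B), followed by Igf2bp1 (-0.59 and -0.26) and Spry1 (-0.62 and -0.28). The ratio was lowest for Cps1 (0.34 in A and 0.76 in B), followed by Socs3 and 4931440P22Rik (0.39 and 0.81). A difference between the A and the B response has no replicate and was not tested.

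**Figure D3:**
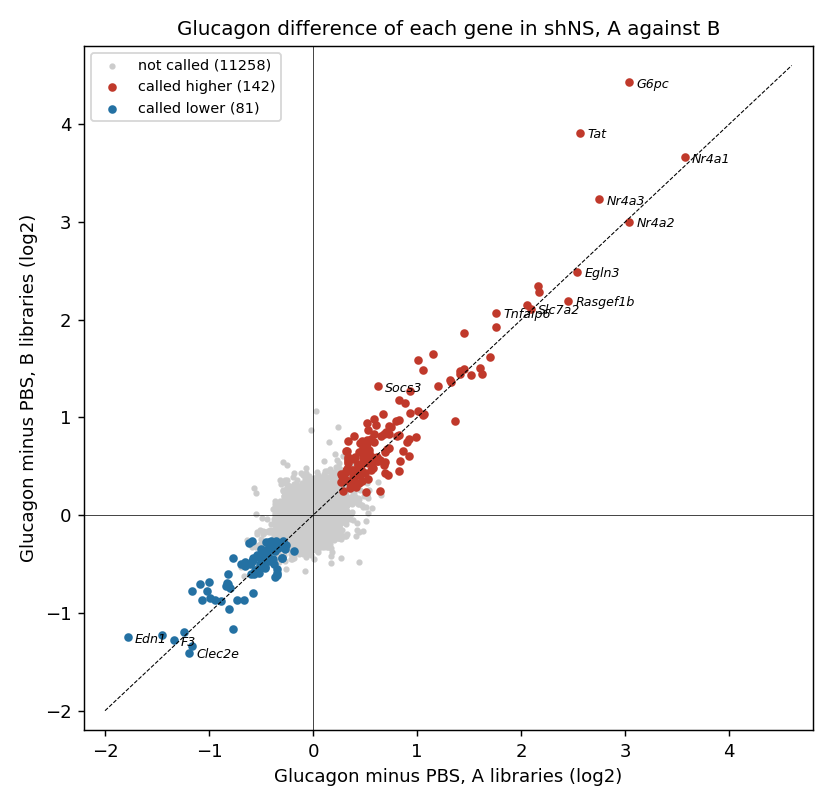
Difference of each of the 11481 genes (log2, glucagon minus PBS) in the A libraries (horizontal axis) against that in the B libraries (vertical axis), with genes called higher in red (142), genes called lower in blue (81) and the others in grey; the dashed line marks equal differences. G6pc (3.04 in A and 4.43 in B) and Tat (2.57 and 3.91) lie farthest above the line, while Nr4a1, Nr4a2 and Egln3 lie close to it.

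The hairpin arms against WDR5 and KAT2B offered libraries in which the 223 genes could be seen again. Each arm had 2 glucagon libraries and 1 PBS library, which is labelled A but correlated more closely with glucagon B of its own arm once the shNS response was added (0.9956 against 0.9824 with glucagon A for WDR5, 0.9958 against 0.9757 for KAT2B). The glucagon B library minus the PBS library is therefore given first. That choice used the shNS response, so the same-sign shares with glucagon B are not independent of shNS. The shares with the mean of both glucagon libraries do not rest on it. In shWDR5 all 223 genes had the sign they had in shNS (100%), against 54.8% of all genes tested, and in shKAT2B 217 had it (97.3%), against 53.6%. With the mean of both glucagon libraries the shares were 97.3% and 91%, against 52.2% and 51.6% of all genes.
The differences tended to be smaller than in shNS. Genes called higher had a median of 0.50 in shWDR5 and 0.43 in shKAT2B, against 0.66 in shNS B, and genes called lower -0.39 and -0.37, against -0.50. The shNS values chose the genes, so this order of medians is given as a description. Among the leading genes, Nr4a1 had 3.37 in shWDR5 and 2.59 in shKAT2B, against 3.66 in shNS B, and G6pc 3.50 and 3.01, against 4.43. Tat had 2.62 and 3.15, against 3.91, and Crem 1.04 and 0.63, against 0.64. Edn1 had -1.27 in shWDR5 and -1.05 in shKAT2B, against -1.25 in shNS B.
In a test of the difference in response itself limma called 0 genes between shNS and shWDR5 (255 at an unadjusted p below 0.05) and 2 of 11481 between shNS and shKAT2B (0.0174%), Efna1 and Nr4a1. Efna1 stood at 10.54 and 10.52 in shKAT2B glucagon and 10.00 in shKAT2B PBS, and its difference was larger in shNS by 1.16 ± 0.12 (adjusted p = 0.00771). Nr4a1 stood at 10.90 and 10.87 in shKAT2B glucagon and 8.28 in shKAT2B PBS, and its difference was larger in shNS by 1.04 ± 0.12 (adjusted p = 0.015). This fit places the lone PBS libraries with B as read from the same data, which moves the counts: with those libraries under their labelled letter 550 (shWDR5) and 1381 (shKAT2B) genes were called, and without the block 0 and 0. Each arm's PBS group is 1 library, assumed to vary like the groups of 2.

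**Figure D4:**
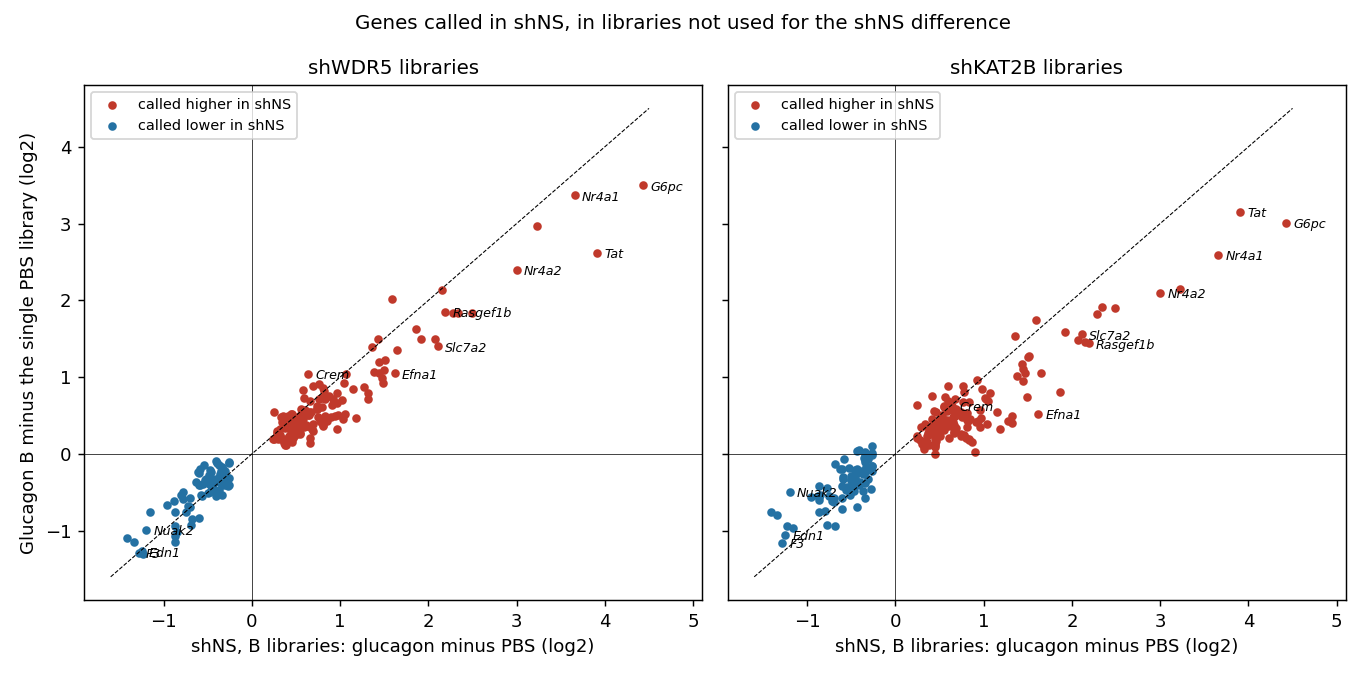
Glucagon B minus the single PBS library in the shWDR5 arm (left) and the shKAT2B arm (right) on the vertical axis, against the B difference in shNS on the horizontal axis, for the 142 genes called higher (red) and the 81 called lower (blue) in shNS, all on the log2 scale; the dashed line marks equal differences. Most points lie between the dashed line and 0, at medians of 0.50 (shWDR5) and 0.43 (shKAT2B) against 0.66 in shNS for the red points.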

How the data were processed

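The authors deposited 1 table of linear intensity for 26913 array features in 10 libraries, made with Affymetrix Expression Console 1.1.1 per the submitters' processing notes. Their normalization method is not stated in the sources used here. Arrays carry no read depth, and precision is limited by the number of libraries. The deposited intensity was taken to log2 with no pseudocount. Features with 1 gene symbol (17873, of which 17815 matched RefSeq by gene identifier) covered 16401 genes, and the brightest feature on average stood for each of the 847 genes with several. Genes in the lowest 30 percent of mean level were dropped, and 11481 were tested. Of the genes called higher, 9 had a mean PBS level below the lowest mean kept (7.12) and passed through values of other libraries, and 2 called lower had a mean glucagon level below it.

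The lmFit and eBayes (trend) functions of limma 3.58.1, in R 4.3.3, were fitted to 6 group means with the replicate letter as a block, on all 10 libraries, so that the contrast is the mean of the A and B differences. It has 3 residual degrees of freedom, and the lone PBS libraries add nothing to the spread. The letter comes from the sample titles: B minus A differences correlated across genes between the 4 groups that have both letters, at 0.721 to 0.844 in all 6 pairs of groups. Tests were two-sided and errors after ± are standard errors. Scripts were tested on simulated data. Python 3.11.15 served for motif searches and plots (matplotlib 3.10.9, pandas 2.3.3, numpy 2.4.6).

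The genes named with full values are 15 known responders, up to 15 called genes at either end, up to 4 called members of each list (or its largest member, said not to pass) and the 3 called genes with the largest and the smallest ratio of A to B. Others were named after their values were seen, to complete a count or to show members that did not pass. The members, the lists and the rule were chosen with earlier results of these data known. Sequences are from RefSeq (GRCm38.p6).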

Additional observations from a re-analysis of the deposited data

Results flagged for a closer look

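The glucagon response of 2 genes differed between the KAT2B hairpin and the control hairpin in the fit that places the lone PBS libraries with B. For Efna1 the response was larger in shNS by 1.16 (log2), with 0.50 in shKAT2B and 1.66 in shNS in that fit. For Nr4a1 it was larger by 1.04, with 2.58 in shKAT2B and 3.62 in shNS. Each rests on 1 PBS library of the KAT2B arm, which adds nothing to the spread and whose letter was read from the same data. The same test called 1381 genes with the letter as labelled and 0 with no block, so the 2 calls depend on that choice. Features that the annotation gives no gene, and that the comparisons above leave out, held 7 with a difference of at least 1 upward in both letters and 1 downward, of 7912. The upward share was 0.0885% with no filter on dim features, against 0.261% of the genes tested. The brightest of the 7 was feature 10400057, at 9.15 and 9.0 under glucagon, against 7.52 and 7.60 under PBS, followed by feature 10371578, at 8.95 and 8.80 under glucagon, against 7.20 and 7.56 under PBS, and feature 10365545, at 8.75 and 8.79 under glucagon, against 7.42 and 6.98 under PBS. The downward one was feature 10340954, at 5.58 and 5.62 under glucagon, against 6.62 and 6.89 under PBS. These values lie below the lowest mean level that passed the filter on dim genes (7.12).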

How the results depend on the processing

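The 142 higher and 81 lower calls stayed within 1.5 times under quantile normalization (128 and 78), median centring (133 and 91), no filter (141 and 74), a filter at 50 percent (101 and 70), pseudocounts of 1 and 16, the mean of a gene's features (147 and 85) and no variance trend (118 and 59). No replicate block left 22 higher and 0 lower, all 22 among the 142. With the 4 shNS libraries alone the counts were 14 and 2 without the block and 0 and 0 with it (921 genes at an unadjusted p below 0.05, 1 residual degree of freedom). Leaving out 1 library gave 59 to 192 higher and 25 to 118 lower, and leaving out the whole pair A or B gave 0 and 0 (290 and 284 genes at an unadjusted p below 0.05), with 1 residual degree of freedom and 1 pair left. With either a single library or a whole pair left out, the counts ran from 0 to 192 and 0 to 118. The test of the difference between arms called 0 (shWDR5) and 2 (shKAT2B) genes, 550 and 1381 with the letter of the lone PBS libraries as labelled, and 0 and 0 with no replicate block. With glucagon B only, a choice that used the shNS response, the same-sign shares were 100% and 97.3%. Of the genes that the naming rule picked, 2 that did not pass changed sign: Emcn, which ranged from -0.005 (without PBS B) to 0.315 (without PBS A), and Sox9, from -0.45 (without the pair A) to 0.01 (without the pair B). For results moved by these settings the cause was not tested. Signal near the array's floor limits genes such as G6pc and Rgs2, whose PBS values are dim.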

Other observations

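Some gene families, and genes outside the lists, were chosen after their values were seen. The family counts are a description, and some members are on the lists above. Of 195 tested solute carriers 11 rose and 0 fell (5.64% called, against 1.24% of all genes higher). Mitochondrial carriers of the SLC25 family gave 4 of 36 (11.1%), namely Slc25a25, Slc25a51, a carrier of NAD (0.88), Slc25a33, a pyrimidine nucleotide carrier (0.55), and Slc25a15. The SLC16 family gave 3 of 9 (33.3%), Slc16a10, Slc16a6 (0.78) and Slc16a7 (0.60). Cdo1, which oxidizes cysteine, stood at 8.63 and 9.13 under glucagon, against 7.64 and 8.33 under PBS (0.90 ± 0.12, limma adjusted p = 0.0014). Ppm1k, the phosphatase that activates breakdown of branched-chain amino acids, stood at 9.39 and 9.02 under glucagon, against 7.94 and 7.52 under PBS (1.48 ± 0.08, adjusted p = 1.76e-06). Hilpda, a lipid droplet protein that inhibits triglyceride lipase, stood at 10.68 and 10.68 under glucagon, against 9.67 and 9.61 under PBS (1.04 ± 0.10, adjusted p = 6.73e-05).

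Further genes were also chosen after their values were seen, from no fixed list. Tgfbr1, the type I receptor of TGF-beta, stood at 11.19 and 11.01 under glucagon, against 9.78 and 9.54 under PBS (1.44 ± 0.13, adjusted p = 4.43e-05). The growth factors Pdgfb (-0.78), Csf1 (-0.77), Lif (-0.61) and Bdnf (-0.52) fell, and Nrg4 (0.59) and Pdgfc (0.34), a relative of Pdgfb, rose. Pdgfb stood at 9.51 and 8.89 under glucagon, against 10.35 and 9.61 under PBS, so that its B levels were the lower ones under either treatment while its differences were close. Of 10 tested ephrins and Eph receptors 2 rose, Efna1 and Epha4 (0.38), and 2 fell, Efnb2 (-0.59) and Epha2. That is 40% called, against 1.94% of all genes, in a family picked after its values were seen.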
